A study of Mus musculus with 2 samples.

Results

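The solute carriers described here move ions, bicarbonate, phosphate and metals across cell membranes. They were taken as every protein-coding gene in both libraries whose mouse symbol begins with Slc4a, Slc8a, Slc9a, Slc12a, Slc20a, Slc24a, Slc26a, Slc30a, Slc34a, Slc39a, Slc40a or Slc41a, followed by a number and any suffix. This rule used gene names only, and it returned 82 of 21474 protein-coding genes. The pattern also returned Slc9a3r1 and Slc9a3r2, which encode PDZ scaffold proteins that tether transporters to the cytoskeleton (also called Nherf1 and Nherf2) and are not transporters themselves.

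The tissue was intestine of healthy mouse embryos at embryonic day 15.5, strain B6NCrl, with no treatment or engineered allele named in the labels. It was sequenced as total RNA in 2 libraries, replicate 1 from a pool of 78 embryos and replicate 2 from a pool of 62 embryos, both of mixed sex. The 2 libraries form 1 group, so no conditions could be compared, and the values below describe levels, transcripts and the spread between pools. Each pool was cut from whole intestine, so that fewer cells of a type and less RNA per cell cannot be told apart.

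Epithelia of the gut use these families to absorb sodium, phosphate, zinc and iron from the lumen and to exchange chloride for bicarbonate. Sodium and proton exchangers work beside chloride and bicarbonate exchangers in salt absorption, while a basolateral cotransporter loads the cell with chloride for secretion. Zinc is handled by opposing families: Slc39 proteins bring it into the cytosol, and Slc30 proteins move it out of the cell or into organelles. Many members also serve every cell, setting pH, volume and the metal content of the secretory pathway.

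The libraries held 34406872 and 40669822 estimated counts, of which ERCC spike-ins took 2.16% and 1.76%, and the 82 genes held 0.286% and 0.273% of the counts on mouse genes. Levels are given in TPM, a unit that corrects for transcript length and library total, so that genes can be compared with each other. As a check against a library deposited in duplicate, the libraries differed by more than counting noise (chi-square of 18.3 per degree of freedom over 19707 genes), and the biological coefficient of variation was 0.0969 over 17590 genes. Of 17 epithelial markers 16 were at 1 TPM or more in both libraries, led by Fabp1 at 2213 and 1919 TPM; the exception was the disaccharidase gene Sis at 0.61 and 0.61 TPM. Smooth muscle and mesenchyme markers (11 of 11), enteric neuron and glia markers (13 of 13) and endothelial markers (8 of 8) passed the same limit. Markers of neighbouring organs were present too: the summed level of 15 exocrine pancreas markers was 9276 TPM in replicate 1 and 3567 TPM in replicate 2, and 10 of them were over 2-fold higher in replicate 1. The 14 islet markers, of which 12 passed the limit, summed to 619 and 412 TPM. The 12 liver markers, of which 9 passed it, summed to 804 and 581 TPM. Trf, which is given again with iron handling, made up 236 and 160 TPM of the liver sum. The 14 stomach markers summed to 23.5 and 16.4 TPM, and 1 of 10 kidney markers passed the limit. The tissue source of these sums was not tested.

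Of the 82 genes, 55 (67.1%) were detected, meaning at least 1 TPM in both libraries, beside 62.7% of all protein-coding genes. At least 10 TPM in both libraries was reached by 32 of them, beside 40.1% of all protein-coding genes. Slc9a3r1, Slc39a7 and Slc40a1 were the 3 genes of the 82 above 100 TPM in both, a level reached by 1548 of all 21474 protein-coding genes. The median level of the 82 was 5.33 TPM (5.34 in replicate 1 and 5.49 in replicate 2), and that of all protein-coding genes was 5.07 TPM. Among detected genes the medians were 12.6 TPM for the 55 and 17.8 TPM for all 13474 detected protein-coding genes. The mitochondrial Slc25 carriers had 39 of 47 genes detected (83.0%) and a median of 10.8 TPM, and the other 252 Slc genes had 152 detected (60.3%) and a median of 2.82 TPM. A further 25 of the 82 were below 1 TPM in both libraries, and Slc26a9 and Slc39a2 passed 1 TPM in replicate 1 only. None of the 82 was listed at 0 in both, beside 3712 of all 21474 protein-coding genes.

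The signal was unevenly spread over the roles. The 82 genes summed to 1466 and 1394 TPM, of which the 14 Slc39 importers held 36.8 ± 0.943% (SD, n = 2) and the 10 Slc30 exporters 10.3 ± 0.644%. The scaffold pair held 17.8 ± 0.224%, and the iron exporter Slc40a1 alone held 8.56 ± 0.689%. Each of the remaining roles held under 6%, from 5.58 ± 0.538% for the 11 Slc26 anion transporters down to 0.811 ± 0.103% for the 8 sodium and calcium exchangers. Of the same roles, 12 of 14 Slc39 genes, 8 of 10 Slc30 genes, 6 of 11 Slc26 genes and 3 of 8 sodium and calcium exchangers were detected.

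**Figure D1:**
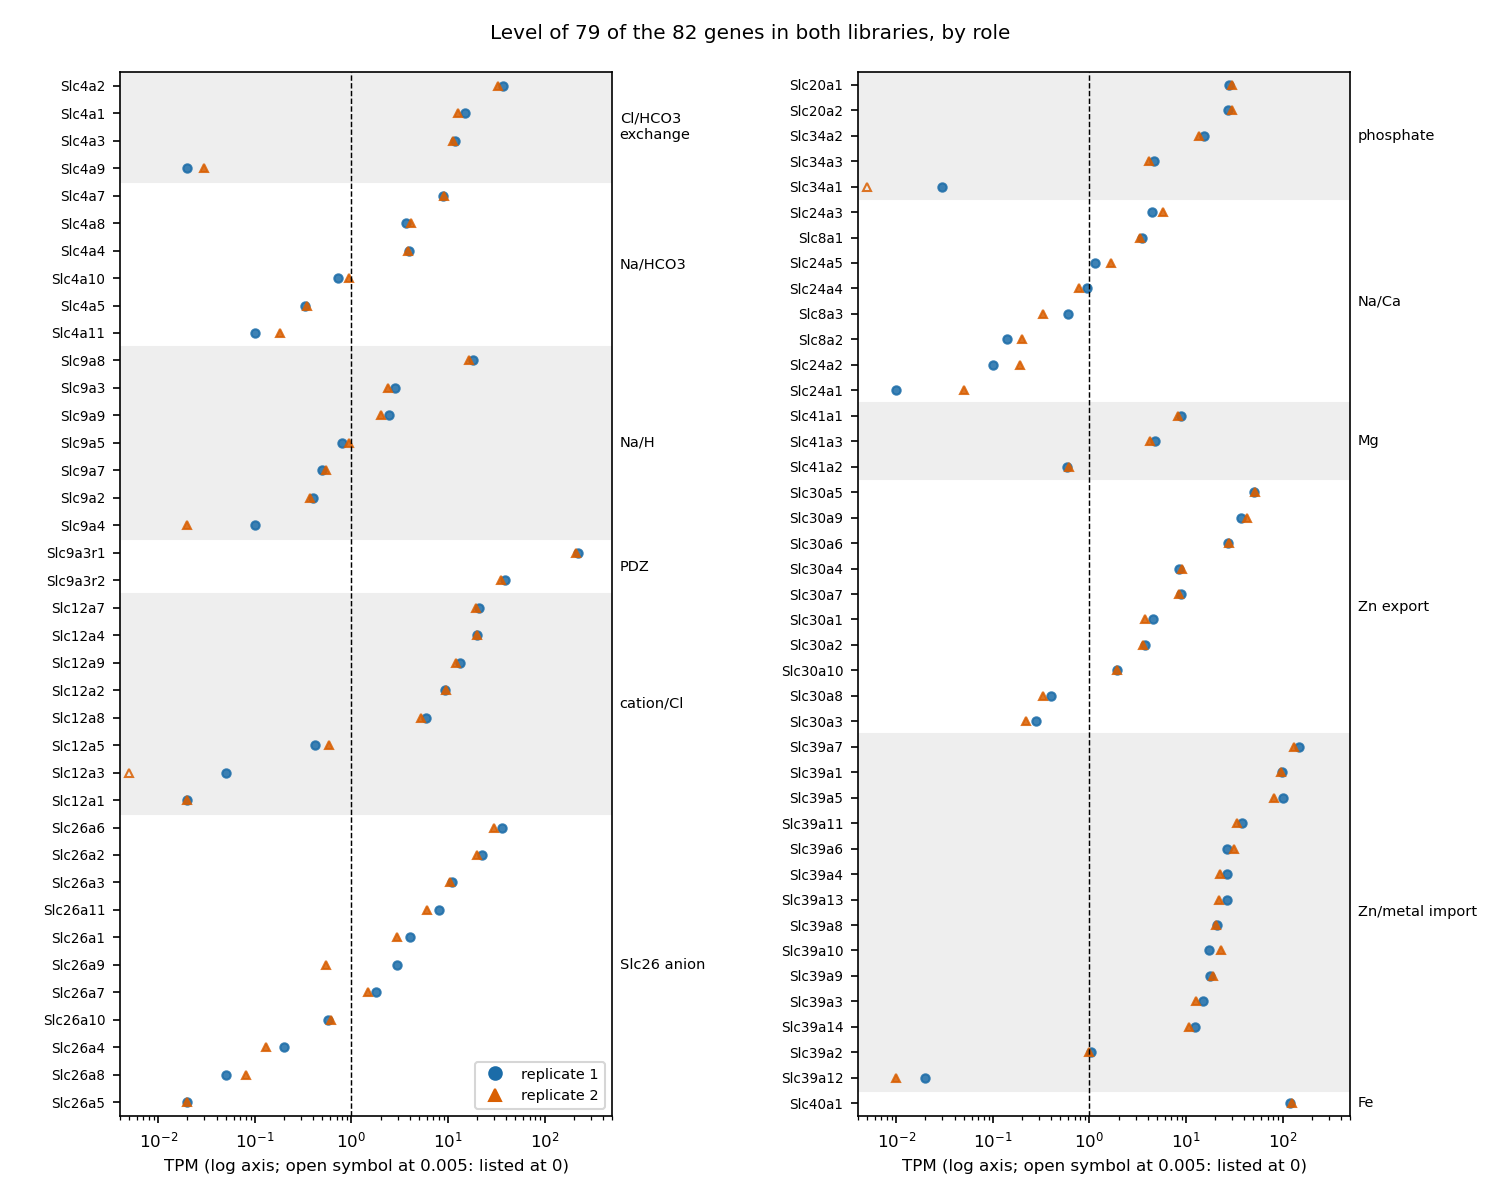
Level of 79 of the 82 genes in TPM (log axis) in replicate 1 (circles) and replicate 2 (triangles), grouped by role, with a dashed line at the detection limit of 1 TPM and open symbols for genes listed at 0. Within most roles the levels span more than the distance between the libraries, and the Slc39 genes stand at 10 TPM or more except Slc39a2 and Slc39a12.

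Zinc importers were the most abundant role. Slc39a7, whose product releases zinc from the endoplasmic reticulum and Golgi, stood at 148 TPM in replicate 1 and 130.0 TPM in replicate 2 (139 ± 12.5, SD, n = 2; chr17:34028269-34031682 on GRCm38, minus strand). The plasma membrane importer Slc39a1 followed with 98.6 and 95.4 TPM (97.0 ± 2.26), and Slc39a5, a basolateral zinc carrier of enterocytes and pancreatic acinar cells, with 101 and 82.2 TPM (91.4 ± 13.0). The ranges of Slc39a1 and Slc39a5 overlapped, so their order was not resolved, while Slc39a7 lay above both in each library. A level for Slc39a7 may include reads of Gm20427, a locus on the same strand that covers 80.7% of its exon bases and was itself listed at 4.60 and 2.23 TPM. Slc39a1 shared 27.7% of its 31-base words with other genes, mostly with its pseudogene Slc39a1-ps, which was listed at 0.07 and 0.05 TPM.

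Slc39a4, the apical transporter that takes zinc from the gut lumen, was at 26.8 and 22.5 TPM (24.7 ± 3.01). Its basolateral counterpart Slc39a5 was thus higher in both libraries, and the ranges of the pair did not overlap. Slc39a5 is also a gene of the exocrine pancreas, whose marker sum is given above for both libraries, and the part of that tissue in its level was not tested. For comparison, Slc39a5 was at 101 against 82.2 TPM, while Ctrb1 was at 2585 against 950 TPM and Cpa1 at 525 against 223 TPM. The direction of many detected genes between the pools depended on the scaling, as given below.

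The next importers lay close together. Slc39a11 was at 37.9 and 34.1 TPM, and Slc39a6, which acts with Slc39a10 at the plasma membrane, at 26.5 and 31.2 TPM. Slc39a13, a zinc carrier of the secretory pathway known from connective tissue, was at 26.5 and 21.8 TPM, and Slc39a8, which carries zinc and manganese, at 21.1 and 20.4 TPM. Slc39a10 was at 17.3 and 23.2 TPM, a range that took in both values of Slc39a8 and of Slc39a9 (17.9 and 19.0 TPM). From Slc39a6 to Slc39a9 the ranges of most neighbours overlapped, and only the step from Slc39a13 to Slc39a8 separated them. Slc39a3 and Slc39a14, the latter a carrier of zinc, iron and manganese, completed the detected importers at 10.8 to 15.2 TPM. Slc39a2 was near the limit at 1.03 and 0.99 TPM, and the brain importer Slc39a12 was at 0.02 and 0.01 TPM.

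Slc39a11 is shown with the sequence before its RefSeq starts because nearly all of its output was on transcripts annotated near the downstream one. RefSeq places starts at 113650092 and 113565815 on the minus strand of chromosome 11. Transcripts that begin within 500 bases of the downstream start held 94.7% and 91.1% of the gene's TPM, and those at the upstream start held 5.29% and 8.91%. The largest share at the upstream start was on Slc39a11-207, with 16.4 and 22 estimated counts. The 200 bases that end 51 bases before each start lie outside every annotated exon and read as follows in RefSeq on GRCm38.p6, 5′ to 3′ on the minus strand. Capitals mark CCAAT or GGGCGG on either strand, words that could overlap each other by a shared CC.
Slc39a11 upstream start, chr11:113650143-113650342: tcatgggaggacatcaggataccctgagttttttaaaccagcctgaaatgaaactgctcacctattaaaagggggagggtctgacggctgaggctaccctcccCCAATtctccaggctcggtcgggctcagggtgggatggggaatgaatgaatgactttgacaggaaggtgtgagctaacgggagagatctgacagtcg
Slc39a11 downstream start, chr11:113565866-113566065: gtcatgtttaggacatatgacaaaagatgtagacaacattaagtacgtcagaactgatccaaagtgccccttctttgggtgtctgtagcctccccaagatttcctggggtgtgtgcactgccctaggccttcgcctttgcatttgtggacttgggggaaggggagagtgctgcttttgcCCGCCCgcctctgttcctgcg
The upstream stretch held 1 CCAAT match and no GGGCGG match, and the downstream stretch held 1 GGGCGG match and no CCAAT match. Over 32851 RefSeq stretches of the same length and placing, 28.4% held CCAAT and 24.6% held GGGCGG; of the 81 stretches that belong to the 82 genes, 26 and 34 did. RefSeq stretches were matched for 64 of the 82 genes, and for 42 of the 55 detected ones.

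Zinc exporters were led by the organelle carriers. Slc30a5, which pairs with Slc30a6 to load zinc into the early secretory pathway, was at 51.1 and 51.4 TPM (51.3 ± 0.255). Slc30a9, a carrier linked to mitochondrial zinc, was at 37.1 and 42.4 TPM, and Slc30a6 at 27.3 and 28.2 TPM (27.7 ± 0.629). These 3 genes did not overlap in range, and Slc30a5 was above its partner Slc30a6 in both libraries. Slc30a4 (8.45 and 9.05 TPM) and Slc30a7 (8.98 and 8.45 TPM) overlapped. Slc30a1, the exporter at the plasma membrane, was lower at 4.53 and 3.76 TPM, and the manganese exporter Slc30a10 was at 1.93 and 1.93 TPM.

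Exporters known from pancreas stood at the low end, unlike the importer Slc39a5. Slc30a2, an exporter of secretory vesicles in acinar cells, was at 3.74 and 3.62 TPM, beside the exocrine marker sums of 9276 and 3567 TPM in the same libraries. Slc30a8, the zinc carrier of insulin granules, was at 0.40 and 0.33 TPM beside Ins2 at 383 and 228 TPM. Slc30a3, of synaptic vesicles, was at 0.28 and 0.22 TPM.

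Genes that buffer or sense zinc were detected in 6 of 7 cases. The metallothioneins Mt1 (2121 and 1889 TPM) and Mt2 (400 and 395 TPM) were far above every transporter gene named here. The zinc-sensing transcription factor Mtf1 was at 11.3 and 11.4 TPM and the zinc receptor Gpr39 at 5.19 and 5.95 TPM. Tmem163, a vesicular zinc carrier, fell below the limit at 0.74 and 0.72 TPM.

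Slc40a1 (ferroportin), the iron exporter of enterocytes, macrophages and placenta, was the third gene in level at 118 TPM in replicate 1 and 126 TPM in replicate 2 (122 ± 5.49; chr1:45908068-45926523, minus strand). Translation of its mRNA is known to be controlled through an iron responsive element, a hairpin with a CAGTGN loop in the 5′ UTR, that some of its transcripts carry and others lack. The coding transcript Slc40a1-201 held 94.8% and 96.1% of the gene's TPM. Its annotated 5′ UTR of 319 bases contained 1 match to the loop, at base 102, and this window is printed because the leading transcript carries it (chr1:45925464-45925493, GRCm38, minus strand, capitals mark the loop).
Slc40a1-201 loop window: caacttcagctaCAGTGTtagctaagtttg
The coding transcripts Slc40a1-206, Slc40a1-205 and Slc40a1-203 had annotated 5′ UTRs of 241, 160 and 198 bases with no match. Such a loop word is common: among 11371 annotated 5′ UTRs at least as long, 4221 (37.1%) held it in their last 319 bases.

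Of 17 other genes of iron handling 14 were detected. Ferritin led with Ftl1 at 5033 and 4683 TPM and Fth1 at 1678 and 1734 TPM, followed by the iron chaperone Pcbp1 (422 and 470 TPM) and transferrin, Trf (236 and 160 TPM). Tfr2 and Hamp, genes of iron sensing and of hepcidin, were below 1 TPM in both libraries, at up to 0.80 and 0.37 TPM respectively. Cp (ceruloplasmin) was at 1.23 and 0.91 TPM.

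Slc4a2 led the Slc4 exchangers that work without sodium. This widely expressed chloride and bicarbonate exchanger was at 37.3 and 33.0 TPM (35.2 ± 3.02). Slc4a1, the band 3 anion exchanger of red cells, was at 15.0 and 12.8 TPM (13.9 ± 1.55), below Slc4a2 in both libraries. The 12 erythroid markers, of which 10 were detected, summed to 102 and 97.4 TPM, with the heme synthesis gene Alas2 at 56.0 and 55.4 TPM; the part of blood in the Slc4a1 level was not tested. Slc4a3, known from brain and heart, was at 11.7 and 11.2 TPM as a gene but had little coding output, as given with the transcripts. Slc4a9 was at 0.02 and 0.03 TPM.

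Sodium-coupled bicarbonate carriers were lower. Slc4a7, an electroneutral carrier, was at 8.97 and 9.08 TPM, Slc4a8 at 3.65 and 4.16 TPM, and Slc4a4, the electrogenic carrier of the basolateral membrane of pancreas, kidney and gut, at 3.91 and 3.85 TPM. Slc4a8 and Slc4a4 overlapped in range, and Slc4a7 was above both. Slc4a10 reached 0.72 and 0.94 TPM, and Slc4a5 and Slc4a11 lay between 0.10 and 0.35 TPM.

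Among Slc26 anion transporters the apical chloride and bicarbonate exchanger Slc26a6 led at the whole-gene level with 36.0 and 30.3 TPM (33.1 ± 4.05). The sulfate transporter Slc26a2, needed for cartilage, was at 22.6 and 20.0 TPM (21.3 ± 1.87). Slc26a3, the chloride and bicarbonate exchanger lost in congenital chloride diarrhoea, was at 11.1 and 10.4 TPM (10.7 ± 0.445). No neighbours among these 3 overlapped at the whole-gene level, so Slc26a6 stood above Slc26a3 in both libraries. The place of Slc26a6 above Slc26a2 depends on a transcript of 418 bases, given with the transcripts, and was not resolved. Slc26a11 was at 8.13 and 6.01 TPM, the sulfate transporter Slc26a1 at 4.05 and 2.97 TPM, and Slc26a7 at 1.79 and 1.47 TPM. Pendrin (Slc26a4, 0.20 and 0.13 TPM) and prestin of cochlear hair cells (Slc26a5, 0.02 and 0.02 TPM) were near 0, as was Slc26a8 of testis (0.05 and 0.08 TPM).

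Slc26a9, a chloride transporter known from stomach and airway epithelium, was the one gene over 2-fold apart between the pools among the 57 that reached 1 TPM in either library (chr1:131744022-131771504, plus strand). It was at 2.94 TPM in replicate 1 and 0.55 TPM in replicate 2, a log2 ratio of -1.35 after adding 1 TPM to each. On this scale the 25 genes below 1 TPM in both libraries cannot pass 2-fold and were not judged. The counts behind this were 161 and 49, which gives a depth-scaled ratio of replicate 2 to replicate 1 of 0.256 (95% exact binomial interval 0.182 to 0.355, counting error only). It thus made 1 of 57 genes (1.75%) at 1 TPM in either library that was over 2-fold higher in replicate 1, where 0.491% of 13859 protein-coding genes were. In the other direction none of the 57 passed 2-fold, beside 0.115% of protein-coding genes.

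Stomach markers moved in the same direction as Slc26a9 in part. Of the 14, 4 were detected and the sum was 23.5 and 16.4 TPM. Tff2 was over 2-fold higher in replicate 1 (6.45 against 2.07 TPM), Cldn18 was at 4.03 and 2.01 TPM and Ctse at 1.78 and 0.72 TPM, but Tff1 was at 6.83 and 7.75 TPM. The acid pump gene Atp4a was at 1.36 and 1.08 TPM, Pgc at 0.78 and 0.83 TPM and Gkn3 at 0.78 and 0.53 TPM. Pga5 was at 0.51 and 0.33 TPM, while Sox2 (0.48 and 0.67 TPM) and Gkn1 (0.19 and 0.35 TPM) went the other way. The other pump subunit gene Atp4b (0.07 and 0.06 TPM) was near 0. Gif, Muc5ac and Gkn2 were each listed at 0 in replicate 2, but had only 1, 6 and 3 counts in replicate 1. The part of stomach tissue in the Slc26a9 difference was not tested, and the exocrine pancreas list, given above, differed in the same direction.

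**Figure D2:**
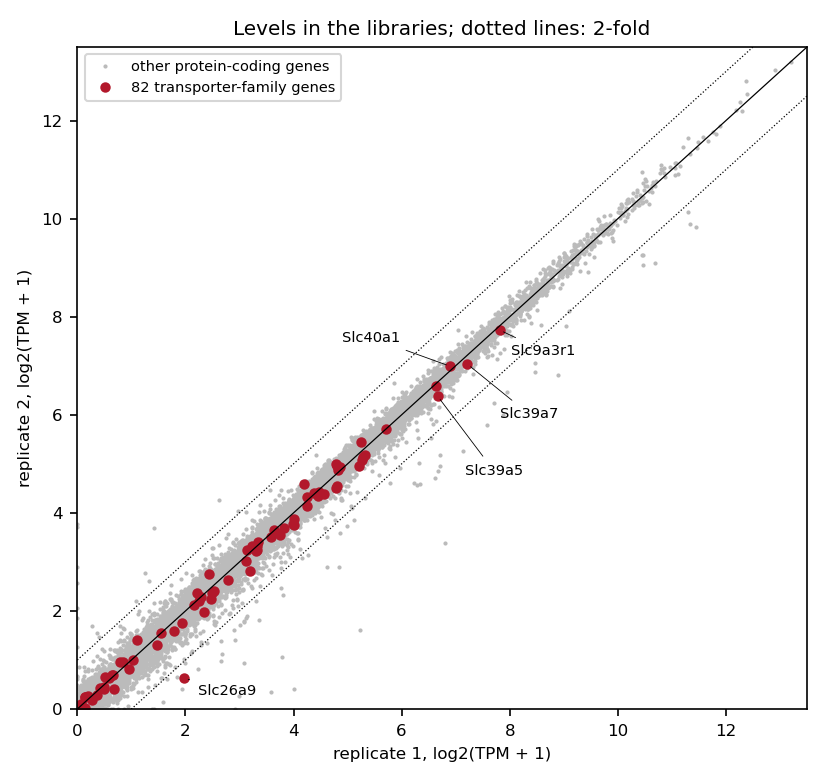
Level of each protein-coding gene as log2(TPM + 1) in replicate 1 (x axis) and replicate 2 (y axis), with the 82 genes in red, the line of equal levels and dotted lines at 2-fold. Slc26a9, at 2.94 and 0.55 TPM, is the red point outside the dotted lines.

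**Figure D3:**
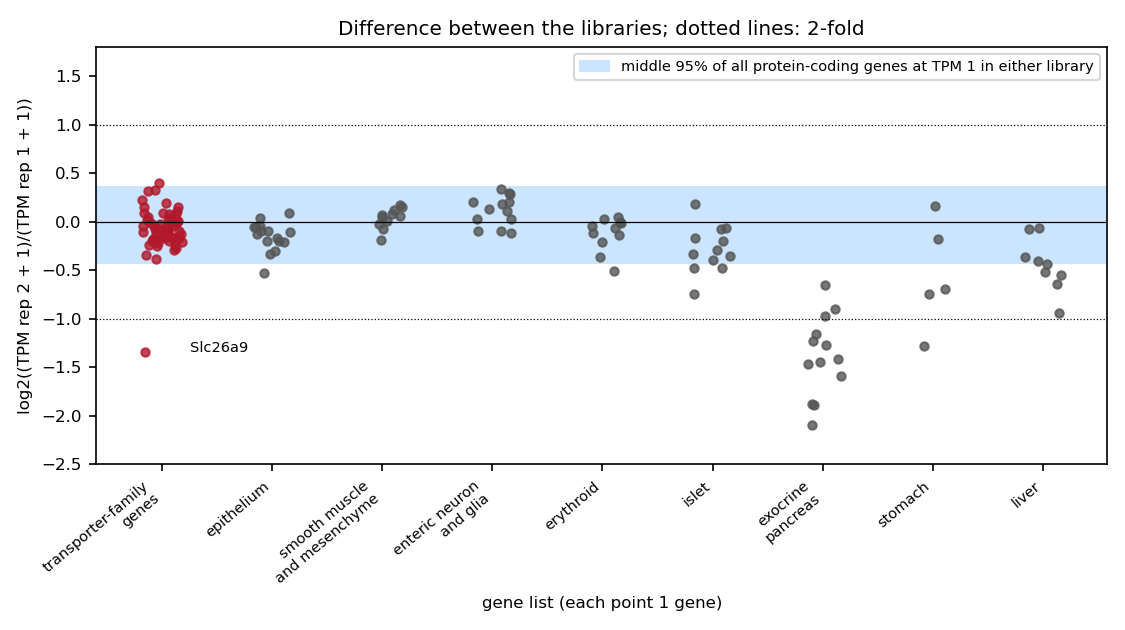
Difference between the libraries, as the log2 ratio of TPM + 1 in replicate 2 to TPM + 1 in replicate 1, for each gene at 1 TPM in either library, for the transporter-family genes and 8 marker lists; the band holds the middle 95% of protein-coding genes. Slc26a9 stands at -1.35, within the range of the exocrine pancreas genes and close to the lowest stomach gene.

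For the 55 genes detected in both pools the libraries lay close together. On the TPM scale 36 of the 55 were higher in replicate 1 and 18 in replicate 2, with Slc30a10 tied, but the split became 5 and 50 when counts were scaled by the spike-ins, under which the median log2 ratio of all detected genes was 0.28 against 0.02 in TPM. Values of both pools are printed, but no direction between the pools is therefore claimed for these 55 genes, Slc39a5 included. The log2 ratio of Slc26a9 stayed between -1.37 and -1.21 under TMM, DESeq2 and spike-in scaling.

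Partners of chloride and bicarbonate secretion were mostly present, with 15 of 19 detected. The guanylin gene Guca2a was at 192 and 147 TPM and its receptor Gucy2c at 60.2 and 63.0 TPM. Carbonic anhydrase Car2 was at 58.0 and 47.0 TPM, and the potassium channel subunit Kcne3 at 47.8 and 45.5 TPM. The chloride channel gene Cftr was at 11.9 and 13.1 TPM, close to Slc26a3. Best2, Car1, Car4 and Car7 were below 1 TPM in both libraries, at 0.73 TPM or less.

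Sodium and proton exchangers were moderate to low. Slc9a8, found in endosomes and at the apical membrane, was highest at 18.1 and 16.6 TPM (17.3 ± 0.997). Slc9a3, the brush border exchanger that absorbs sodium in the adult gut, was at 2.81 and 2.38 TPM (2.60 ± 0.304), and its range overlapped that of Slc9a9 (2.45 and 2.01 TPM). Slc9a2, the other brush border exchanger, was at 0.40 and 0.37 TPM. Slc9a5 (0.80 and 0.95 TPM), Slc9a7 (0.50 and 0.55 TPM) and Slc9a4 of gastric parietal cells (0.10 and 0.02 TPM) were also below the limit.

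The scaffold that anchors Slc9a3 was far more abundant than Slc9a3 itself. Slc9a3r1 was the highest of the 82 genes at 224 and 211 TPM (218 ± 9.38; chr11:115163341-115181181, plus strand), and Slc9a3r2 was at 39.3 and 35.2 TPM (37.2 ± 2.91). In the ranking of all protein-coding genes by mean TPM, Slc9a3r1 stood at percentile 96.8 and Slc9a3 at percentile 43.3. Of 10 other PDZ and ezrin family genes 9 were detected: Ezr, whose product links these scaffolds to actin, was at 196 and 194 TPM, Gipc1 at 134 and 137 TPM, Msn at 55.9 and 60.5 TPM and Rdx at 46.4 and 55.7 TPM. Shank2 was at 0.79 and 0.61 TPM.

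Slc9a3r2 is another gene with more than 1 RefSeq start, and its stretches are shown as a case where the upstream start held most of the output, unlike Slc39a11. The upstream start carried 90.8% and 95.6% of its TPM and the downstream start 9.21% and 4.42%. The stretches are on the minus strand of GRCm38.p6, placed and marked as for Slc39a11.
Slc9a3r2 upstream start, chr17:24650356-24650555: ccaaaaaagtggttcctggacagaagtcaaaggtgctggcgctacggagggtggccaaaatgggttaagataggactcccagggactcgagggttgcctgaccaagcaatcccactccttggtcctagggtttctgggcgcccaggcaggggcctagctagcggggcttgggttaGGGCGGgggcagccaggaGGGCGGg
Slc9a3r2 downstream start, chr17:24645008-24645207: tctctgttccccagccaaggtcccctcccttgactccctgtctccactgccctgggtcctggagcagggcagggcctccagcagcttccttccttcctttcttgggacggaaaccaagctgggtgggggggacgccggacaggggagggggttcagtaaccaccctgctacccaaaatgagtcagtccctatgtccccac
The upstream stretch held 2 GGGCGG matches, and neither word was found in the downstream stretch.

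Cation and chloride cotransporters were led by the potassium and chloride pair. Slc12a7 was at 20.98 and 19.4 TPM (20.2 ± 1.15) and Slc12a4 at 19.8 and 20.1 TPM (20.0 ± 0.170), with overlapping ranges. Both lower cell volume by exporting potassium with chloride. Slc12a9 was lower at 13.2 and 12.01 TPM. Slc12a2, which loads epithelial cells with sodium, potassium and chloride for secretion, was at 9.20 and 9.55 TPM (9.38 ± 0.247), below these 3 genes in both libraries. Slc12a8 was at 5.93 and 5.22 TPM and the neuronal Slc12a5 at 0.42 and 0.58 TPM. The kidney genes were near absent: Slc12a1 was at 0.02 and 0.02 TPM, and Slc12a3 had 4 counts in replicate 1 and 0 in replicate 2, where a count of 0 allows up to 3 counts, or 0.0751 per 1000000 mouse counts.

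Regulators of these cotransporters, the WNK kinases with their partners, were detected in 11 of 12 cases. Sgk1 (25.4 and 30.6 TPM), Wnk1 (26.2 and 29.0 TPM), Cab39l (26.5 and 28.0 TPM) and Cul3 (26.2 and 24.9 TPM) were highest, and Klhl3 was at 0.83 and 0.69 TPM. The sodium pump that powers secondary transport was represented by 16 genes of the pump and of sodium channels, of which 11 were detected. The beta subunits Atp1b1 (169 and 170 TPM) and Atp1b3 (114 and 128 TPM) and the pump modulator Fxyd3 (64.0 and 59.0 TPM) were abundant. The epithelial sodium channel subunits Scnn1b (0.42 and 0.26 TPM) and Scnn1g (0.16 and 0.20 TPM) were below 1 TPM, as were Atp12a, Fxyd4 and Atp1a4.

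Phosphate entry was represented by the widely expressed pair Slc20a1 (27.9 and 29.6 TPM, 28.8 ± 1.22) and Slc20a2 (27.1 and 30.2 TPM, 28.6 ± 2.18), which overlapped. Slc34a2, the sodium and phosphate cotransporter of gut and lung epithelium, was at 15.2 and 13.6 TPM (14.4 ± 1.10), below both in each library. The kidney forms were low: Slc34a3 was at 4.62 and 4.16 TPM, and Slc34a1 had 2 counts in replicate 1 and 0 in replicate 2. Of 9 other phosphate genes 6 were detected, with Slc37a4 (42.9 and 35.5 TPM), Fgfr1 (23.7 and 22.9 TPM), Pth1r (19.3 and 17.8 TPM) and Enpp1 (6.79 and 7.25 TPM) highest. Phex, Fgf23 and Kl, genes of hormonal phosphate control in bone and kidney, were at 0.05 TPM or less.

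Sodium and calcium exchangers formed a low group. Slc24a3, which exchanges sodium for calcium and potassium, was at 4.40 and 5.76 TPM, and Slc8a1, the exchanger best known from heart muscle, at 3.47 and 3.35 TPM. Slc24a5, of melanosomes, was at 1.15 and 1.67 TPM, but 39.5% of its exon bases overlap the gene Myef2 on the opposite strand (53.1 and 64.8 TPM), and no strand setting is given in the sources used here, so its level is uncertain. Slc24a4, Slc8a3, Slc8a2, Slc24a2 and Slc24a1 were below 1 TPM, from 0.95 TPM for Slc24a4 in replicate 1 to 0.01 TPM for Slc24a1 in replicate 1.

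Slc24a3 is shown with its start stretches because the transcripts with output at its 2 RefSeq starts differ in annotated type. The transcript at the downstream start, Slc24a3-204, is annotated as a processed transcript without a coding region and held 75.5% and 67.7% of the gene's TPM. The upstream start held 24.5% and 29.99%, and the coding transcript Slc24a3-202, which begins there, was at 1.08 and 1.73 TPM. The stretches are on the plus strand of GRCm38.p6, placed and marked as for Slc39a11.
Slc24a3 upstream start, chr2:145167525-145167724: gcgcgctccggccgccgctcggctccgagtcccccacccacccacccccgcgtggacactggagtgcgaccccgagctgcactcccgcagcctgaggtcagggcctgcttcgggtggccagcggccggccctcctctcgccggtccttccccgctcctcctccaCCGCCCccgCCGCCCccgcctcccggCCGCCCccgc
Slc24a3 downstream start, chr2:145242361-145242560: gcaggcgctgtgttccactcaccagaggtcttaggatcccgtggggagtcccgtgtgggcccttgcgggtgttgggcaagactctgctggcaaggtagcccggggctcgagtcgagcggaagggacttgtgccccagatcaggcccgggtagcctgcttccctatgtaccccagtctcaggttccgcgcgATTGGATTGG
The upstream stretch was 80.0% G and C and held 3 GGGCGG matches, while the downstream stretch was 64.0% G and C and held 2 adjoining CCAAT matches.

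Of 16 other calcium genes 9 were detected. The calcium-binding protein of enterocytes S100g was highest at 210 and 264 TPM, followed by the plasma membrane pump Atp2b1 (39.7 and 46.6 TPM) and the reticulum pumps Atp2a2 (36.2 and 34.8 TPM) and Atp2a3 (21.2 and 19.7 TPM). The apical calcium channel Trpv6, which acts upstream of S100g in the adult gut, was at 0.42 and 0.32 TPM. Trpv5, Ryr2, Atp2b2, Atp2b3 and Calb2 were also below 1 TPM in both libraries. Atp2a1, the pump of skeletal muscle, was over 2-fold higher in replicate 2 (0.20 and 2.22 TPM).

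Magnesium carriers were Slc41a1 at 8.90 and 8.35 TPM, Slc41a3 at 4.74 and 4.28 TPM and Slc41a2 at 0.59 and 0.61 TPM, with no overlap. Of 10 other magnesium genes 8 were detected, with Magt1 (64.9 and 67.4 TPM), Nipa2 (45.1 and 51.7 TPM), Trpm7 (35.5 and 37.8 TPM) and Cnnm4 (30.6 and 29.9 TPM) highest. Trpm6, the absorptive channel of adult gut and kidney, was at 0.03 and 0.08 TPM, and Cnnm1 at 0.35 and 0.28 TPM.

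The transcript tables showed which of these genes gave mainly coding RNA. In 51 of the 55 detected genes the same transcript led in both libraries, beside 93.6% of detected protein-coding genes. In 22 of the 55 the leading transcript held over 90% in both, beside 5888 of 13474 detected protein-coding genes. Only 1 transcript was quantified for 12 of the 55 (3693 of the 13474), so these could give no other result. The median share of coding transcripts was 99.2%. In 4 of the 55 less than 50% of the output, averaged over the libraries, was annotated as coding, beside 7.55% of detected protein-coding genes. These 4 were Slc4a3, Slc39a14, Slc24a3 and Slc9a8, and the first 3 were led by a transcript that is not annotated as coding.

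Slc4a3 was the gene with the smallest coding share. Slc4a3-209, a retained intron transcript of 706 bases, held 40.8% and 36.1% of its TPM. Its coding transcripts held 11.5% and 6.65%, which left 1.35 and 0.74 coding TPM out of 11.7 and 11.2. On coding transcripts alone, then, replicate 2 fell under the limit at which the whole gene counted as detected.

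Slc39a14 had a similar pattern. The retained intron transcript Slc39a14-211 held 44.3% and 58.5%, and coding transcripts held 41.3% and 11.2%, or 5.19 and 1.21 TPM. The short coding transcripts Slc39a14-203 and Slc39a14-206 were at 1.82 and 1.38 TPM in replicate 1 and were listed at 0 in replicate 2; the full coding transcript Slc39a14-202 was at 1.41 and 1.21 TPM. In replicate 1 those short transcripts rested on 16.5 and 9.06 estimated counts.

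Slc9a8, the highest sodium and proton exchanger, was led by the coding Slc9a8-201 with 40.5% and 47.0%, and coding transcripts together held 40.5% and 48.0%. The rest lay on transcripts annotated as retained intron or processed. Its coding level was therefore 7.32 and 7.98 TPM, against 18.1 and 16.6 TPM for the whole gene. Shares below 60% for the leading transcript in at least 1 library also occurred in genes whose output was mostly coding, such as Slc4a2-203 (51.8% and 49.5%), Slc39a13-201 (38.03% and 45.8%), Slc20a1-201 (55.3% and 79.9%), Slc34a3-201 (58.1% and 67.6%) and Slc4a8-204 (51.2% and 59.5%).

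**Figure D4:**
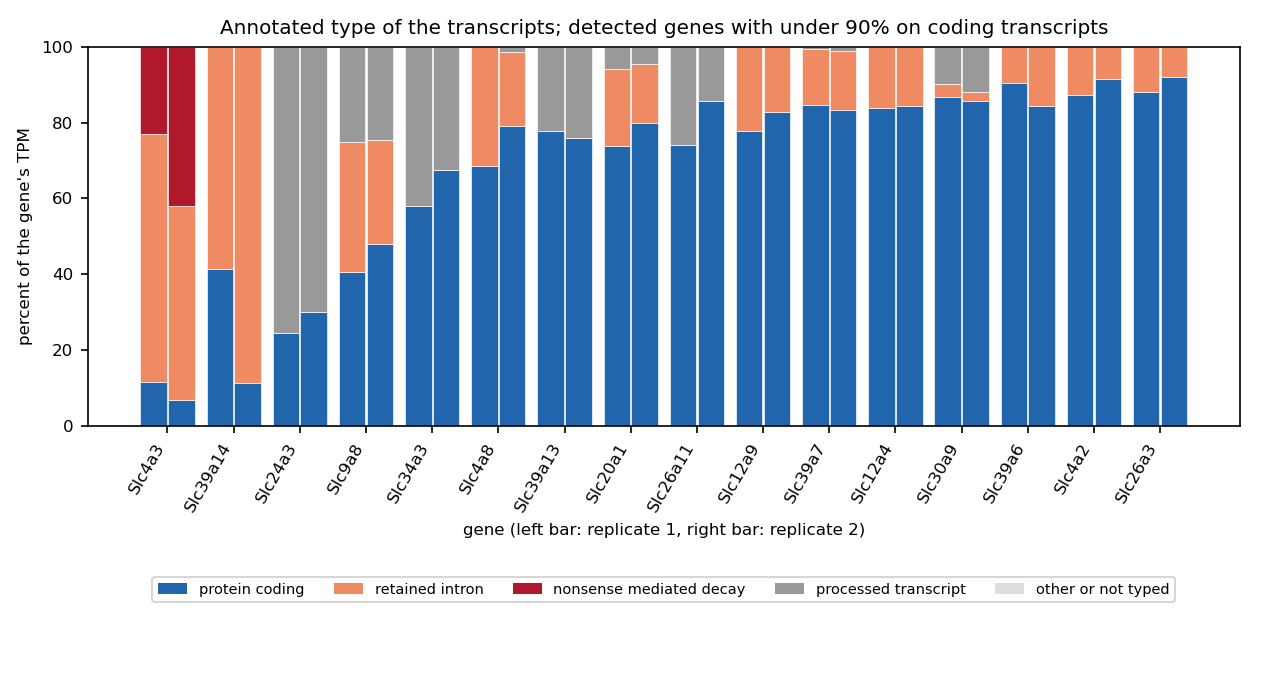
Percent of each gene's TPM on transcripts of each annotated type, for 16 detected genes with under 90% on coding transcripts, replicate 1 in the left bar and replicate 2 in the right bar of each pair. Coding transcripts hold 11.5% and 6.65% in Slc4a3 and 24.5% and 29.99% in Slc24a3.

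Slc26a6 was led by a short transcript. Slc26a6-203, of 418 bases, held 44.0% and 44.5% of the gene's TPM but 121 and 119.9 estimated counts out of 1145 and 1143, since TPM divides by length. It begins at base 108912410 of chromosome 9, while the next transcript, Slc26a6-202 of 1985 bases, begins at 108854135 and held 38.2% and 36.6%. The gene level of Slc26a6 therefore rests in large part on a transcript with few counts. At 13.8 and 11.1 TPM, Slc26a6-202 alone was near the whole-gene level of Slc26a3, whose leading transcript Slc26a3-201 was at 9.74 and 9.59 TPM. Further coding transcripts of Slc26a6, such as Slc26a6-206 at 3.92 and 3.45 TPM, are not in that figure.

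The leading transcript differed between the libraries in Slc39a3, Slc26a2, Slc12a8 and Slc26a7. In the first 3 the change was among coding transcripts, each with under 50% of the output: Slc39a3-205 led in replicate 1 with 42.7% and Slc39a3-201 in replicate 2 with 46.1%. Slc26a2-201 led with 37.7% in replicate 1 and Slc26a2-203 with 38.9% in replicate 2, and Slc12a8-201 gave way in the same manner to Slc12a8-203 (46.3% and 45.1%). In Slc26a7 the transcript Slc26a7-204 of 715 bases held 52.0% in replicate 1 and 0 in replicate 2, where Slc26a7-201 of 5165 bases held 90.2%. The share in replicate 1 rested on 13.7 estimated counts for Slc26a7-204, beside 104 for Slc26a7-201. The counts of Slc26a7 were 118 and 188 while its TPM was 1.79 and 1.47, so the unit decided which library appeared higher.

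Single forms dominated in other members of interest. Slc8a1-202 held 100% in both libraries, among 3 quantified transcripts of its gene. Slc12a2-201 was the only quantified transcript of its gene, so its 100% was fixed by the annotation. In Slc4a4 the transcript Slc4a4-207 held 84.0% and 85.3%, and transcripts at the upstream RefSeq start together held 100% and 96.6%, against 0 and 3.44% for the downstream one.

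Output was assigned to RefSeq starts by annotated transcript 5′ ends, not by measured RNA ends, for 12 detected genes with more than 1 start. The upstream start held most of the output of Slc4a4, Slc39a5 (87.9% and 91.8%), Slc9a3r2, Slc26a1 (79.2% and 62.0%) and Slc20a1 (64.3% and 86.8%). A start farther downstream held most of that of Slc39a11, Slc39a8 (95.9% and 97.2%) and Slc24a3. The starts of Slc39a8 lie within 500 bases of each other, and each transcript went to the nearer start. Slc39a10 (93.7% and 82.9% downstream) and Slc12a7 (100% and 100% downstream) had no quantified transcript assigned to their upstream start. The downstream start of Slc4a2 had none either. Use of these starts could therefore not be read. Slc12a8 was split over 3 starts, and 70.4% and 64.9% of Slc4a2 came from transcripts that begin over 500 bases from each of its RefSeq starts. Shares that differ between the libraries by 10 points or more, as in Slc20a1, Slc26a1, Slc39a10 and Slc12a8, exceed the differences in the other 8 genes. In Slc20a1 this depends on the window of 500 bases. The coding transcript Slc20a1-202, with 17.9% and 0 of the TPM, begins at 129199310, just beyond the window of the upstream start at 129198773.

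**Figure D5:**
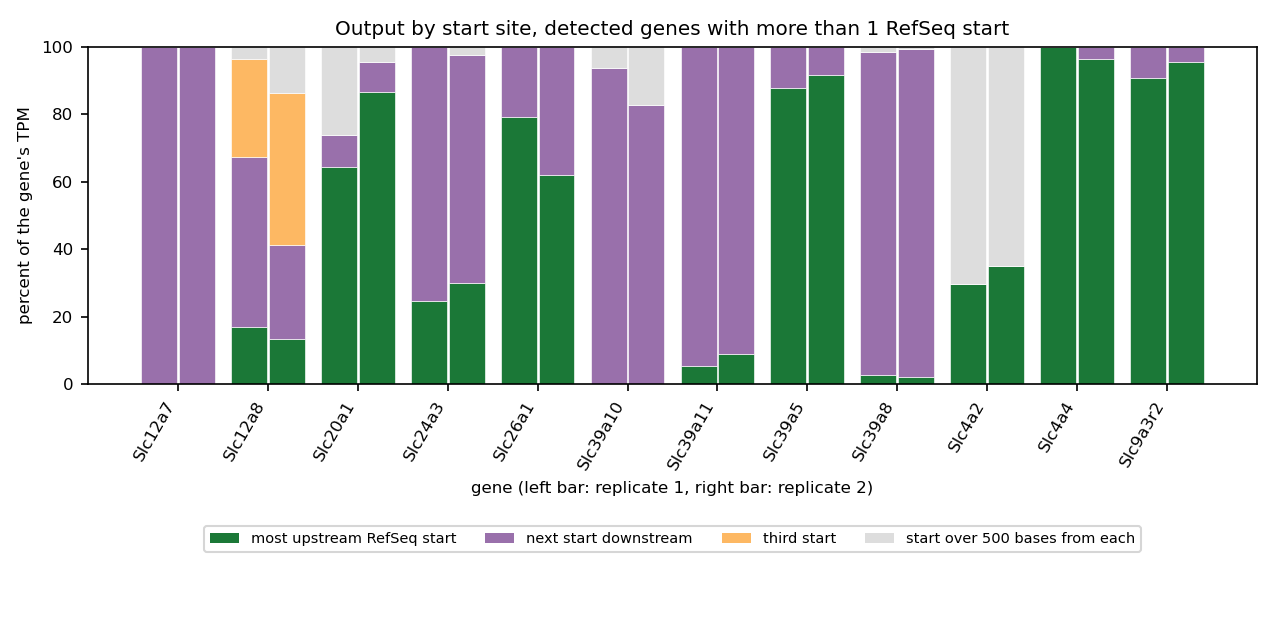
Percent of each gene's TPM on transcripts that begin within 500 bases of each RefSeq start, for the 12 detected genes with more than 1 start, replicate 1 in the left bar and replicate 2 in the right bar. The output of Slc39a11 and Slc9a3r2 lay on transcripts annotated at opposite ends of their start pairs. It was 94.7% and 91.1% downstream in Slc39a11 and 90.8% and 95.6% upstream in Slc9a3r2.

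Shared sequence limits some of these levels. Of the 82 genes, 13 shared over 5% of their 31-base words with another gene and 4 shared over 20%, among them Slc39a7, Slc24a5 and Slc39a1. Slc4a2 overlaps Fastk (91.5 and 87.2 TPM) over 13.7% of its exon bases on the opposite strand, and Slc26a10, at 0.57 and 0.61 TPM, overlaps B4galnt1 (40.6 and 38.3 TPM) over 17.8%. No molecular identifiers are named in the sources used here, so the interval and the limit for a count of 0 given above cover counting error only.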

How the data were processed

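RNA of both pools was extracted with the mirVana kit, and 10 ng with ERCC spike-ins entered each library, per the labels' protocols. The authors deposited gene and transcript tables for each library with expected counts, TPM and FPKM, and transcript tables with the percent of a gene's output on each transcript, per the file headers. Expected counts are estimated and need not be whole. Per the deposited readme, reads were assigned with GENCODE M4 on mm10. The sources used here do not name the aligner, quantifier, read length or strand setting. Symbols, types and positions came from GENCODE M21 (GRCm38) by Ensembl identifier without version, matched for 42462 of 43346 mouse genes, and start sites from RefSeq (GRCm38.p6). Of 349 transcripts of the 82 genes, 7 were not in M21.

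A gene was detected when neither library fell below 1 TPM. Ratios between libraries were log2 ratios of replicate 2 to replicate 1 with 1 TPM added to each, which understates the change of low genes. With 1 group of 2 libraries no test between conditions was run. The counts of each library were scaled by edgeR 4.0.16 (TMM) and DESeq2 1.42.0 factors, after rounding, as alternatives only, in R 4.3.3; other steps used Python 3.11.15. Only the 2-fold call was tested on simulated counts.

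Values are given for every gene at a mean of 20 TPM or more, the highest 3 of each role, those over 2-fold apart, members known from gut, red cells or pancreas, and the 4 highest and the undetected genes of each partner list. Cftr was named in addition. A few named genes are left out of the text and the labelled plots. The remaining genes were to be given by range and count, and values are printed for most as well. The genes, lists and rules were chosen with earlier results of these data known. Best4 and Ankh were on the partner lists and were not matched by symbol.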

Additional observations from a re-analysis of the deposited data

How the results depend on the processing

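With 2 pools, the spread rests on 1 difference per gene, and genes below about 1 TPM rest on few counts. Of the 82 genes 55 were detected; the count was 63 at a limit of 0.5 TPM, 41 at 5 TPM, 72 at 10 expected counts, 54 in FPKM, 57 in posterior mean TPM, and 55 to 57 when replicate 1 or replicate 2 was left out. Their median level was 5.33 TPM with an SD of 0.110 between libraries; it was 5.51 in posterior mean TPM, 3.68 in FPKM, 12.6 over detected genes only, and 5.34 to 5.49 without 1 replicate. Slc26a9 was the only gene beyond the 2-fold limit, and the only one with a pseudocount of 0.1, with TMM, DESeq2 or spike-in scaling, and at a limit of 1.5-fold. Dropping the filter could not change this, since genes below 1 TPM in both libraries cannot pass 2-fold with 1 TPM added. On the TPM scale 36 of 55 genes were higher in replicate 1 and 18 in replicate 2; the split was 37 and 18 with TMM, 34 and 21 with DESeq2, and 5 and 50 with spike-ins, where the median ratio of all detected genes was 0.28 (log2), against 0.02, 0.01 and 0.02 with TPM, TMM and DESeq2. The same transcript led in 51 of 55 genes, in 52 by posterior mean percent, and in 39 of the 42 genes at a mean of 5 TPM or more. Genes with only 1 quantified transcript, 12 of the 55 and 10 of the 42, have the same leader under each setting. Ratios and leading transcripts compare the libraries, so leaving 1 out gives no value. No paired analysis was possible because the labels give 1 group.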
